A study of Homo sapiens with 9 samples.

Results

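Of the 42427 FOXA1 peaks on chromosomes 1 to 22 and X of the lung adenocarcinoma line NCI-H3122, 18465 overlapped no NKX2-1 peak by even 1 bp in any of 4 NKX2-1 lists, which is 43.5% of all FOXA1 peaks (95% Wilson interval 43.1 to 44.0). These FOXA1 peaks without NKX2-1 are described here. They were chosen by the positions of the peaks in these lists, so their number and the absence of NKX2-1 are a description and carry no test. The remaining 23962 FOXA1 peaks overlapped an NKX2-1 peak in at least 1 list.

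The data are chromatin immunoprecipitation sequencing (ChIP-seq) peak lists from 3 established human cell lines of lung adenocarcinoma: H3122, H1819 and H2087. Each line carries an amplified NKX2-1 gene per the labels and was grown in RPMI1640 with serum, with no treatment named. FOXA1 was precipitated with an Abcam antibody in H3122 (1 list), and NKX2-1 with a Bethyl Laboratories antibody in H3122 (2 lists, called replicates 1 and 2), H1819 (1 list) and H2087 (1 list). FOXA1 was thus seen in 1 library of 1 line, and nothing in the labels says that the H3122 NKX2-1 lists came from separate cultures. Peak lists hold no expression values, so the lines were not checked against lung markers. Intervals below cover counting error over peaks only, since peaks of 1 library are not replicates.

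FOXA1 is a forkhead transcription factor of endoderm-derived epithelia, including the airway and the alveolus. It is known as a pioneer factor, able to bind its forkhead motif on nucleosomal DNA and to open chromatin for other factors. NKX2-1, the homeodomain factor of lung and thyroid identity, binds with FOXA1 and its relative FOXA2 at many lung genes, and FOXA factors also act in liver, gut, breast and prostate, where NKX2-1 is not the partner. FOXA1 sites that lack NKX2-1 in a lung line with amplified NKX2-1 are therefore places where one factor is found without the other, at the depth of these lists.

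The long H3122 replicate 2 list decided most of the membership. It overlapped 23134 FOXA1 peaks and left 19293. The H3122 replicate 1 list took away only 61 more, H2087 a further 412 and H1819 the last 355. Left out of the rule one at a time, the lists gave 33267 peaks without replicate 2 (78.4% of FOXA1 peaks), 18522 without replicate 1, 18820 without H1819 and 18853 without H2087. The NKX2-1 lists differed widely in length, with 48061 peaks in replicate 2, 7467 in replicate 1, 13482 in H1819 and 14434 in H2087. Absence of NKX2-1 here thus means, for most sites, absence from the replicate 2 list. The FOXA1 peaks removed by the other lines after both H3122 lists had median FOXA1 scores of 107 (H2087) and 109 (H1819), against 207 for those removed by replicate 2.

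FOXA1 peaks without NKX2-1 were mostly weak by the authors' score. The score is taken to be on the MACS scale, where a higher score means a smaller p-value, and it ranks peaks within the list. Their median score was 99.3 (95% order-statistic interval 98.2 to 100.3), with quartiles of 73.2 and 159 and a range from 60 to 2738. FOXA1 peaks with NKX2-1 had a median of 202 (199 to 206), with quartiles of 107 and 447. Of the peaks without NKX2-1, 9324 scored under 100, or 50.5%, against 21.9% of those with NKX2-1. Only 589 scored 500 or more, and 93 scored 1000 or more. None of them reached 3100, where scores saturate, while 137 peaks with NKX2-1 did.

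The share without NKX2-1 fell at every step of the FOXA1 score. It was 69.9% (68.5 to 71.2) in the lowest decile of scores, 49.8% (48.3 to 51.3) in decile 5 and 7.85% (7.08 to 8.70) in the highest. At the extreme, none of the 100 highest FOXA1 peaks lacked NKX2-1, and a count of 0 in 100 allows a share of up to 3%, taking 3 peaks as its limit, or of 3.70% by the Wilson interval. Among the 500 highest there were 8, among the 1000 highest 24 and among the 5000 highest 444, or 8.88% (8.12 to 9.70). With all 4 lists, the strongest FOXA1 sites of this line nearly always had an NKX2-1 peak on them. This level rested on the replicate 2 list. Without it the share still fell at every step, but from 88.4% (87.4 to 89.3) in the lowest decile to 56.0% (54.5 to 57.5) in the highest.

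**Figure D1:**
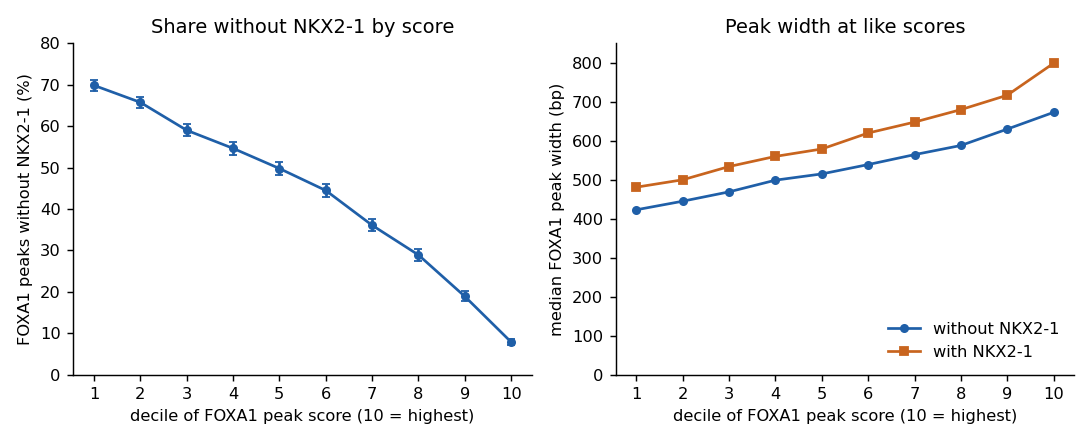
Left, the share of FOXA1 peaks without an NKX2-1 peak (y axis, percent, with 95% Wilson intervals) in each decile of FOXA1 scores (x axis); right, the median FOXA1 peak width in bp with and without NKX2-1 in the same deciles. The share goes down from 69.9% to 7.85% with all 4 NKX2-1 lists (from 88.4% to 56.0% without H3122 replicate 2, not drawn), and the peaks without NKX2-1 are narrower in each of the 10 deciles.

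Peaks without NKX2-1 were also narrower. Their median width was 495 bp (492 to 497) and that of FOXA1 peaks with NKX2-1 was 636 bp (633 to 639). Width rises with score, but the gap was present within every decile of scores. It was 58 bp in the lowest decile, where the medians were 423 and 481 bp, and 126 bp in the highest, where they were 673 and 799 bp. Among the narrowest decile of FOXA1 peaks, of 167 to 375 bp, 74.1% lacked NKX2-1, and among the widest decile 9.83% did. The rule itself favours narrow peaks, since a wide peak has more bases that can meet an NKX2-1 peak. When an NKX2-1 peak had to cover the midpoint of the FOXA1 peak, 19361 peaks had none, and these include all 18465. Their median width was 498 bp and that of the other 23066 was 637 bp (634 to 640). Within deciles the gap under the midpoint rule was 58 bp in the lowest and 104 bp in the highest. Whether the overlap rule accounts for part of the gap was not tested further. In all, the peaks without NKX2-1 covered 9.46 Mb and those with NKX2-1 16.1 Mb.

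FOXA1 scores were graded by where NKX2-1 was found. The 767 FOXA1 peaks with NKX2-1 in H1819 or H2087 but not in H3122 had a median score of 108 (102 to 116), close to the 99.3 of peaks with no NKX2-1 anywhere. FOXA1 peaks with NKX2-1 in H3122 alone numbered 16687 and had a median of 202 (198 to 205). With NKX2-1 in H3122 and 1 other line the median was 220.35 (212 to 230), and in all 3 lines it was 245 (224 to 269). The larger step in FOXA1 score thus lay between sites with and without NKX2-1 in H3122, the line with the longest list. When replicate 2 alone stood for H3122 and was cut, with H2087, to the 13482 highest peaks, the length of the H1819 list, FOXA1 peaks with NKX2-1 in H3122 only had a median score of 314 (304 to 324). Those with NKX2-1 in H1819 or H2087 only had 141 (134 to 147), and those with none of these had 116 (115 to 117). Sites with NKX2-1 in H3122 and another line, at 293 (277 to 305), were then not above those with it in H3122 only.

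**Figure D2:**
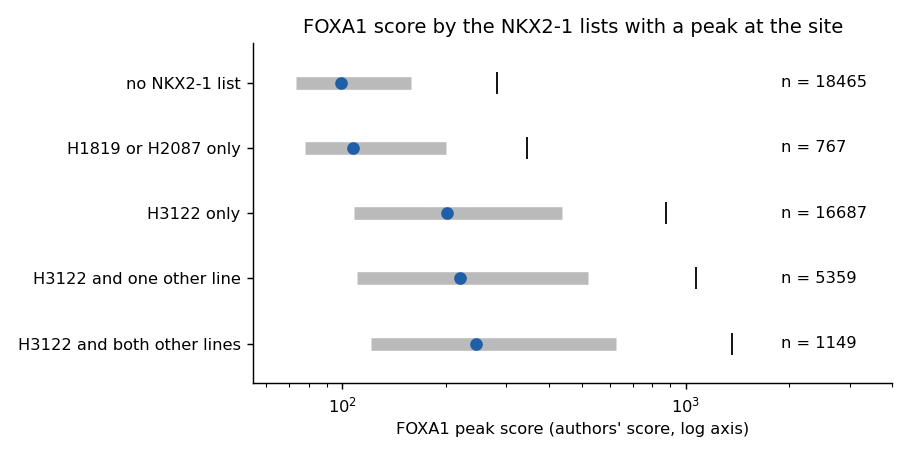
FOXA1 peak score (x axis, log scale) in 5 classes set by which NKX2-1 lists had a peak at the site; dots are medians, grey bars the quartiles and ticks the 90th percentile. Peaks with no NKX2-1 list (median 99.3) and those with NKX2-1 in H1819 or H2087 only (108) lie below the 3 classes with NKX2-1 in H3122 (202 to 245).

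The strongest site without NKX2-1 lay in band 20q12, on chromosome 20 from 39712304 to 39712969 in the human genome build hg18. Its FOXA1 score was 2738, which ranked 217th among all FOXA1 peaks. The nearest NKX2-1 peak, with a score of 416 in replicate 2, was 6.29 kb away. The second, in 7q11.22 (chromosome 7, 68841900 to 68842828), scored 2399 and lay 6.28 kb from a replicate 2 peak of score 783. A pair on chromosome 5 followed, in 5q12.1 (58992800 to 58993401, score 2309) and 5q13.2 (73124358 to 73124900, score 2247). Their nearest NKX2-1 peaks were weak, at scores of 66.4 and 92.1, and lay 6.65 and 2.85 kb off.

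The other 6 of the 10 strongest lay in differing surroundings. Those in 3p22.2 (chromosome 3, 39068014 to 39068837, score 2202), 2q32.2 (chromosome 2, 190409277 to 190410292, score 2067) and 18q22.3 (chromosome 18, 69760271 to 69761006, score 1918) lay far from NKX2-1. The nearest NKX2-1 peak of any list was 52.9, 51.3 and 37.5 kb away from them. Those in 6q15 (chromosome 6, 90706798 to 90707252, score 2146) and 7q31.1 (chromosome 7, 113512545 to 113513843, score 2016) lay 492 and 345 bp from a replicate 2 peak of low score (69.0 and 83.5). The site in 3p14.1 (chromosome 3, 69965175 to 69965833, score 2055) was in between, at 3.15 kb from a peak of score 394. Strong FOXA1 peaks without NKX2-1 thus included sites far from NKX2-1 and sites right beside it.

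Beyond these single sites, NKX2-1 was found at distances that depended on the replicate 2 list. The median distance from a FOXA1 peak without NKX2-1 to the nearest NKX2-1 peak of any list was 10.4 kb (10.0 to 10.7), with quartiles of 2.70 and 29.5 kb. Without replicate 2 the median over the 33267 peaks then without NKX2-1 was 33100 bp. With all 4 lists, 1455 of the 18465 peaks (7.88%) had an NKX2-1 peak within 500 bp, 2465 (13.3%) within 1 kb and 9089 (49.2%) within 10 kb. At the other end, 833 (4.51%) had none within 100 kb. The nearest peak was from replicate 2 for 14650 of them, or 79.3%, while that list held 57.6% of all NKX2-1 peaks. By list, the median distance was 12.5 kb to replicate 2, 82.6 kb to H1819, 110 kb to H2087 and 116 kb to replicate 1. A longer list can shorten these distances, so they cannot be ranked as closeness of the factors. List length did not order them throughout. H2087, with 14434 peaks, lay farther off than H1819, with 13482. The reason was not tested.

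**Figure D3:**
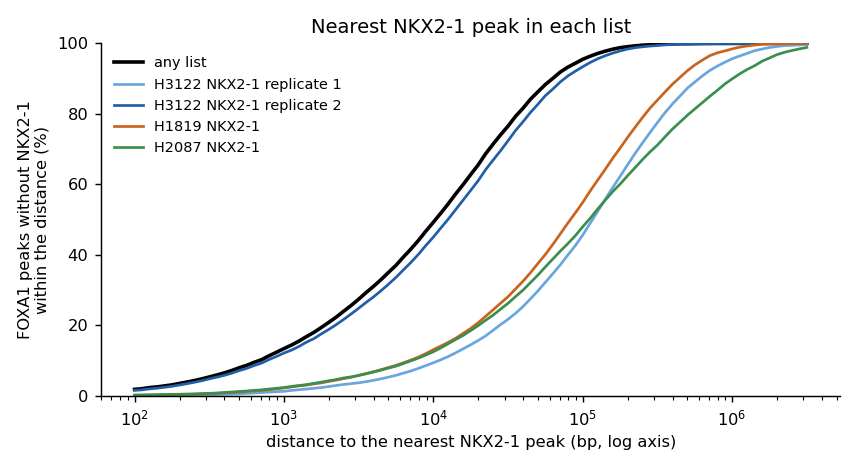
Cumulative share (y axis, percent) of the 18465 FOXA1 peaks without NKX2-1 that have an NKX2-1 peak within the distance on the x axis (bp, log scale), for each NKX2-1 list and for any list. The curve for any list passes 49.2% at 10 kb, and replicate 2, the longest list, runs just below it.

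The median score of these peaks differed little between distance classes, while peaks scoring 500 or more were somewhat more frequent nearer to NKX2-1. The median was 98.3 (94.1 to 101.4) for those under 500 bp from NKX2-1, 101.1 (99.8 to 103) at 1 to 10 kb, 98.1 (96.7 to 99.8) at 10 to 100 kb and 92.5 (88.8 to 97.6) beyond 100 kb. Width was lowest in the last class, at a median of 460 bp (448 to 468), against 508 bp (499 to 518) in the first. The FOXA1 peaks with NKX2-1 had their next NKX2-1 peak, not counting any that overlapped them, at a median of 6.13 kb (5.93 to 6.32), nearer than the 10.4 kb of the peaks without. Within each decile of FOXA1 scores that order was the same. The medians were 11.3 and 6.45 kb in the lowest decile and 7.94 and 5.64 kb in the highest. Peaks scoring 500 or more were 60 of the 1455 under 500 bp from NKX2-1 and 39 of the 1010 at 500 to 1000 bp. They were 232 of the 6624 at 1 to 10 kb, 241 of the 8543 at 10 to 100 kb and 17 of the 833 beyond 100 kb. NKX2-1 peaks were thus sparser around FOXA1 sites without NKX2-1 beyond the site itself. The same NKX2-1 lists set the rule and gave these distances. The difference is therefore fixed in part by the rule and is description only.

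The rule has a sharp edge. Just inside it, 5 FOXA1 peaks abutted an NKX2-1 peak with no base between them, and 164 lay within 50 bp of one. One of the 5, in 1p36.23 (chromosome 1, 7998041 to 7998392, score 218), abutted an H2087 peak of score 502. Those in 2p15 (chromosome 2, 63799141 to 63799551, score 74.1) and 7p15.3 (chromosome 7, 22778492 to 22779146, score 103) abutted replicate 2 peaks of scores 87.0 and 65.8. Just outside it, peaks in 10q26.13 (chromosome 10, 126831003 to 126831442, score 88.3) and 15q21.2 (chromosome 15, 50091016 to 50091616, score 87.8) shared 1 bp with replicate 2. Another, in 2q32.1 (chromosome 2, 183696489 to 183697222, score 134), shared 2 bp. Such cases were few, as 122 of the FOXA1 peaks with NKX2-1 (0.509%) overlapped by 50 bp or less and the median overlap was 550 bp.

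FOXA1 peaks without NKX2-1 also stood farther from other FOXA1 peaks. Their nearest FOXA1 neighbour was at a median of 13517 bp (13129 to 13977), against 8055 bp (7818 to 8303) for FOXA1 peaks with NKX2-1. Under 10 kb from another FOXA1 peak were 43.2% of the former and 54.6% of the latter. The order held in each decile of scores, with medians of 13.8 and 9.24 kb in the lowest and 10.6 and 6.61 kb in the highest. FOXA1 peaks that stood alone, with no other FOXA1 peak within 10 kb, lacked NKX2-1 in 49.1% of 21381 cases. In clusters of 5 to 9 FOXA1 peaks joined over gaps under 10 kb, 33.1% (31.4 to 34.8) lacked it, and in the 21 clusters of 10 or more 32.3% (26.7 to 38.3) did. Clusters made only of FOXA1 peaks without NKX2-1 were small. They were 901 of the 5163 clusters of 2 peaks (17.5%) and 145 of the 2335 of 3 or 4 (6.21%). Of the 488 clusters of 5 to 9 peaks, 2 (0.41%) were of this kind. Both held 5 peaks, in 5q11.2 (chromosome 5, 51153280 to 51173330) and 9q21.11 (chromosome 9, 72191935 to 72202819). Each of the 21 clusters of 10 or more held FOXA1 peaks of both kinds. In clusters of 2 and of 3 or 4, 39.8% and 37.3% of the peaks lacked NKX2-1. At such shares, clusters of only 1 kind become rarer with size in any case. The rarity of large ones thus says nothing about these peaks in particular.

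As to their surroundings, 1217 of the peaks without NKX2-1 (6.59%) lay under 1 kb from a FOXA1 peak that had NKX2-1, and 5471 (29.6%) under 10 kb. A larger group of 7692 (41.7%) was at least 10 kb from any other FOXA1 peak and from any NKX2-1 peak. Their median score was 97.2, near the 96.9 of those under 1 kb from a shared site. At least 100 kb from both were 410 peaks. The farthest from NKX2-1 with a score of at least 100 lay in 11q11 (chromosome 11, 55466884 to 55467163, score 111). That band is classed as centromeric, and its coverage by mapped reads was not examined. This peak was 900.1 kb from NKX2-1 and 899.9 kb from the next FOXA1 peak. Others in Xp21.3 (chromosome X, 26374574 to 26374949), Xp21.1 (chromosome X, 33820754 to 33821345), 9q31.1 (chromosome 9, 104642466 to 104642943) and 3q26.1 (chromosome 3, 164676567 to 164677071) lay 784, 766, 557 and 463 kb from NKX2-1. All 5 had scores between 100.2 and 149.

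Along the chromosome, peaks without NKX2-1 followed each other only a little more often than they followed peaks with NKX2-1. The next FOXA1 peak also lacked NKX2-1 in 45.3% of 18458 cases after a peak without it and in 42.2% of 23946 cases after a peak with it, a difference of 3.14 points (Newcombe 95% interval 2.19 to 4.09). The difference was 14.5 points (11.01 to 18.0) where the peaks lay under 1 kb apart, at 43.4% and 28.9%, and 21.9 points (16.3 to 27.4) where both of these also scored under 200. It was 3.28 points (1.30 to 5.27) at 1 to 10 kb, 1.41 (0.0760 to 2.75) at 10 to 100 kb, and -1.24 (-3.45 to 0.977) beyond. Among pairs that both scored under 100 the difference was 1.48 points, with an interval from -1.25 to 4.23 that includes 0. Likeness between neighbours was thus found mainly within 1 kb. The rule can build in part of it, since 1 NKX2-1 peak can overlap both FOXA1 peaks of so close a pair. Replicate 2 peaks had a median width of 656 bp. How much of the likeness this makes up was not tested.

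The 18465 peaks formed 10103 runs of FOXA1 peaks with no shared site in between, and 5584 of these were single peaks. In runs of 5 or more were 2544 peaks (13.8%). Runs arise in any case where 43.5% of all FOXA1 peaks lack NKX2-1. Their lengths were not compared with what that share alone would give. The longest run held 15 FOXA1 peaks over 647 kb in 13q13.1 (chromosome 13, 31559147 to 32206185). Its scores were low, with a median of 76.0 and a highest value of 228. The stretch was not free of NKX2-1, since 2 and 5 NKX2-1 peaks of the H3122 replicates, 3 of H1819 and 2 of H2087 lay between the FOXA1 peaks without touching them. The distance from the 15 to the nearest NKX2-1 peak, inside or outside the stretch, went from 893 bp to 32.5 kb. Just to the left of the run, FOXA1 peaks with scores of up to 1257 did carry NKX2-1. The next longest runs held 13 peaks each in 3q26.1 to 3q26.2 (chromosome 3, 168521168 to 169262557) and in 18q22.1 (chromosome 18, 61501715 to 62937113). Runs of 12 followed in 13q12.12 to 13q12.13 (24166215 to 24809804) and 13q21.33 (70466344 to 71307601), so that 3 of the 5 longest were on chromosome 13. The last of these held just 1 NKX2-1 peak, from H1819.

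**Figure D4:**
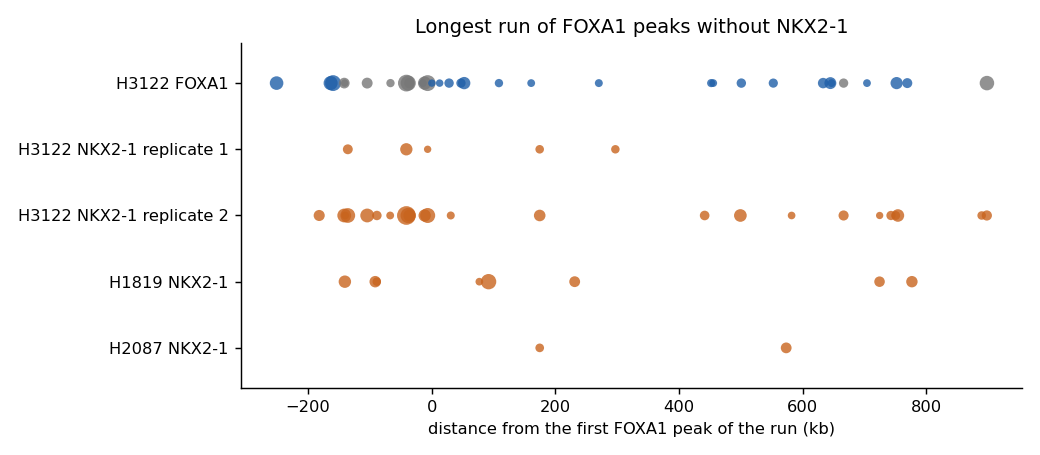
Peaks of the 5 lists around the longest run, by distance in kb from its first FOXA1 peak (x axis); blue FOXA1 dots lack NKX2-1, grey ones have it, orange dots are NKX2-1 peaks, and dot area grows with the log of the score. The 15 blue dots from 0 to 647 kb share the stretch with NKX2-1 peaks that do not overlap them, and larger grey dots sit to the left.

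In density, peaks without NKX2-1 averaged 6.11 per Mb and largely followed the FOXA1 list. The window with most of them was 45 to 46 Mb on chromosome 12 (12q13.11), with 30 of its 74 FOXA1 peaks. Next were 124 to 125 Mb on chromosome 5 (5q23.2) with 29 of 78, 71 to 72 Mb on chromosome 3 with 27 of 54, and 72 to 73 Mb on chromosome 13 with 26 of 58. Windows at 72 to 73 Mb of chromosome 6 and at 18 to 19 Mb of chromosome 7 held 25 of 46 each. The Wilson interval of the share included 43.5% in each of these windows. Bands of at least 1 Mb were led by 13q22.1 with 19.5 peaks per Mb, 7p21.1 with 18.8 and 14q22.3 with 17.1, or 3.20, 3.08 and 2.81 times the mean. FOXA1 peaks with NKX2-1, which are more common in the whole list, numbered 20.5, 24.2 and 19.3 per Mb there. The share without NKX2-1 in these bands was 48.8%, 43.8% and 47.1%, each with a Wilson interval that includes 43.5%.

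Some stretches did differ in the share, though they were picked as extremes among 792 windows of 1 Mb with at least 20 FOXA1 peaks, whose median was 41.5%. Neighbouring windows of 8q21.12 stood at both ends. From 79 to 80 Mb of chromosome 8, 18 of 23 FOXA1 peaks lacked NKX2-1 (78.3%, 58.1 to 90.3), and from 80 to 81 Mb 2 of 24 did (8.33%, 2.32 to 25.8). The scores of their FOXA1 peaks would give 49.4% and 41.2%, if each peak had the share of its decile of scores. Replicate 2 held 14 NKX2-1 peaks in the former window and 29 in the latter. The lowest share was at 19 to 20 Mb of chromosome 16 (16p12.3), with 1 of 23. High shares were found at 70 to 71 Mb of chromosome 13 (13q21.33) and at 75 to 76 Mb of chromosome 5 (5q13.3), with 15 of 20 each. None of these extremes was tested.

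The bands of the 2 factors' own genes stood on either side of the overall share. In 14q13.3, the band of NKX2-1, 14 of 43 FOXA1 peaks lacked NKX2-1 (32.6%, 20.5 to 47.5). In 14q21.1, the band of FOXA1, 31 of 55 did (56.4%, 43.3 to 68.6). Both intervals include the 43.5% of the whole list, and they overlap each other. The FOXA1 scores in the 2 bands alone would give 35.8% and 42.1%. Neighbouring bands lay on the same sides, at 38.0% in 14q13.1, 34.6% in 14q13.2, 58.1% in 14q21.2 and 59.0% in 14q21.3. Shares on the same side were thus also found outside the bands of the 2 genes. Each line carries an amplified NKX2-1 gene, and how far the amplified stretch reaches is not given here. The bands next to 14q13.3 may therefore not be a separate comparison, and none of these differences was tested.

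By chromosome the share ran from 35.4% to 47.8%, and the Wilson interval left out the overall 43.5% on 3 of 23 chromosomes. These were chromosome 19, where 196 of 553 FOXA1 peaks lacked NKX2-1 (35.4%, 31.6 to 39.5), chromosome 13 with 890 of 1863 (47.8%, 45.5 to 50.0) and chromosome X with 396 of 839 (47.2%, 43.8 to 50.6). Their FOXA1 scores alone would give 44.0%, 43.6% and 44.8%. Against all other chromosomes the differences were -8.19 points (Newcombe interval -12.1 to -4.08), 4.45 points (2.13 to 6.77) and 3.75 points (0.360 to 7.17). The chromosomes were picked after their values were seen. When only scores of at least 100 were kept in every list, chromosome 19 was at 43.7% against 44.5% elsewhere, or -0.764 points (-5.85 to 4.45), and chromosome 13 at 1.18 points (-1.68 to 4.07). The low share on chromosome 19 and the high one on chromosome 13 were thus not seen without the weak peaks, while chromosome X stayed higher, by 5.75 points (1.56 to 9.95). With all NKX2-1 lists cut to the length of the shortest, the differences were -3.42 points (-7.25 to 0.0872) for chromosome 19, 1.81 (-0.139 to 3.64) for chromosome 13 and 7.44 (4.81 to 9.75) for chromosome X. The first 2 of these intervals include 0. Without replicate 2 the 3 differences were -12.2, 5.96 and 6.83 points.

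**Figure D5:**
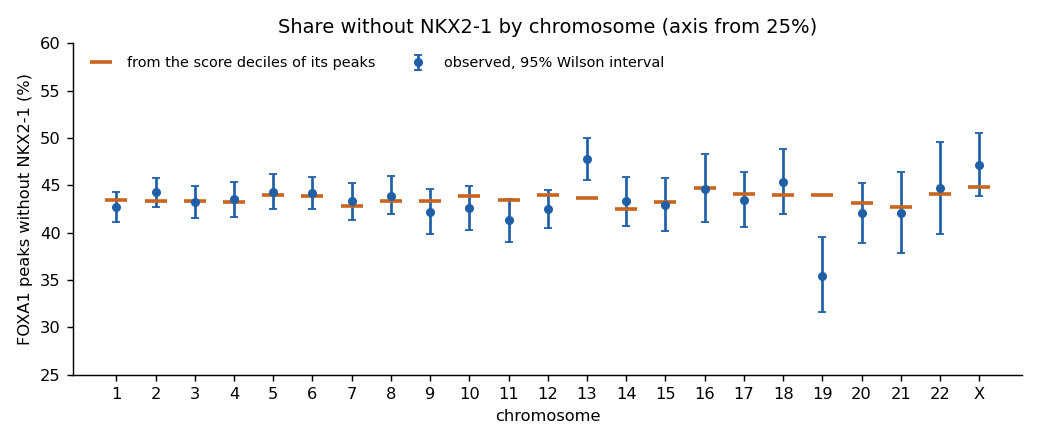
Share of FOXA1 peaks without NKX2-1 on each chromosome (blue dots, percent, 95% Wilson intervals; the axis starts at 25%) and the share its FOXA1 scores alone would give (orange bars). Chromosome 19 (35.4%) lies below its bar of 44.0%, and chromosomes 13 (47.8%) and X (47.2%) lie above theirs, while the bars themselves span only 42.5% to 44.8%.

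Peaks without NKX2-1 differed only modestly in density between light and dark chromosome bands, which differ in gene density and base composition. On autosomes they numbered 6.73 per Mb in unstained bands and 7.09 in the darkest Giemsa class, a ratio of 0.95 (exact interval 0.912 to 0.989). The classes in between, from pale to dark, had 6.04, 6.54 and 7.06 per Mb. The lowest density was thus in the palest stained class and not in unstained bands. FOXA1 peaks with NKX2-1 numbered 8.95 and 8.31 per Mb, a ratio of 1.08 (1.04 to 1.12). The share without NKX2-1 was 42.9% (42.2 to 43.6) in unstained and 46.0% (44.9 to 47.2) in the darkest bands. It was lowest in the palest stained class, at 40.6% (38.8 to 42.3). With scores of at least 100 in every list the ratios were 1.05 (0.994 to 1.10) and 1.03 (0.981 to 1.08) with intervals that overlap. Within the highest decile of FOXA1 scores the ratio was 1.05 (0.77 to 1.46) for peaks without NKX2-1 and 0.85 (0.779 to 0.928) for peaks with it, so that the latter turned towards dark bands there. The slight lean of FOXA1 peaks without NKX2-1 to dark bands was thus not seen in these alternatives, and that of the shared peaks to light bands was turned in the highest decile.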

How the data were processed

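The analysis used 5 deposited peak lists of ChIP-seq libraries from cross-linked, sonicated chromatin; the 4 input samples were not analysed here. The authors aligned reads with Bowtie to hg18 and called peaks with the program MACS, version 1.4.0 (per the submitters' processing notes), giving 1 list per library. The deposited score is the authors' value for each peak, and no source used here states its scale, thresholds or control library. The lists did not start at the same score. The lowest was 50 in H3122 NKX2-1 replicate 1 and about 60 in each other list. With scores of at least 60 in every list, 18483 FOXA1 peaks (43.6%) had no NKX2-1 peak. The sources used here do not give read depth, so absence of a peak is absence from a list at unknown depth.

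Peaks on chromosomes 1 to 22 and X were compared by overlap of at least 1 bp in Python 3.11.15 (numpy 2.4.6, scipy 1.17.1, pandas 2.3.3, matplotlib 3.10.9). Bands came from circlize 0.4.16 in R 4.3.3. Shares have Wilson, differences Newcombe, medians order-statistic and density ratios exact conditional binomial intervals, all at 95%. Score deciles were cut over all FOXA1 peaks. Overlap and distance code was tested on shifted copies of the FOXA1 peaks, and the code for median intervals on simulated data. The other kinds of interval were not tested in this way. Named regions followed a rule by score, distance, run length, window and band; extremes of share, chromosomes and clusters were picked after their values were seen. The members and lists were chosen with earlier results of these data known. Planned counts near gene starts and by gene list, and the planned motif and base composition comparisons, were not run, because no hg18 gene positions or genome sequence were used here.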

Additional observations from a re-analysis of the deposited data

Results flagged for a closer look

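Outside the rule were 8 FOXA1 peaks on sequence that hg18 gives no position on its chromosome. Of these, 5 overlapped no NKX2-1 peak, with scores from 89.3 to 399.8. They stand here because a count of 0 would allow only 3. That limit takes no account of list length, and no control list was used here. Nor was a count of 0 to be looked for, since 43.5% of the FOXA1 peaks under the rule lacked NKX2-1. Whether 5 of 8 differs from that share was not tested, so the count is not read as unusual.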

How the results depend on the processing

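Of 86 alternatives, 50 left a result within its interval or on its side of 0, 32 moved it and 4 weakened a chromosome difference. The alternatives for chromosomes, for the H3122 lists alone, for FOXA1 scores by line at equal list length, for widths of shared peaks, for the lowest decile and for NKX2-1 scores of at least 200 or 500 were chosen after seeing the data. Without H3122 NKX2-1 replicate 1 or 2, the share without NKX2-1 was 43.7% and 78.4%, the median score 99.4 and 125.7, the share in the highest score decile 7.94% and 56.0%, the median width 495 and 543 bp, the median distance to NKX2-1 10653 and 33100 bp, and the share of these peaks next to another one 69.9% and 95.5% (69.8% with all lists). The share next to another one rises with the share without NKX2-1 itself, so its change is not read as clustering. Without H1819 the share without NKX2-1 was 44.4%, the distance 11318.5 bp and the share next to another 70.4%. Without H2087 they were 44.4%, 10729 bp and 70.6%. With NKX2-1 within 500 bp counted as shared, the share was 40.1% and the distance 12333.5 bp. The midpoint rule gave 45.6%, 9.01% in the highest decile, 498 bp and 9335 bp. Keeping scores from 100 upwards gave a share of 44.5%, a median score of 169, 10.5% in the highest decile, a width of 564 bp, a distance of 15368 bp and a ratio of light to dark bands of 1.05; within the highest FOXA1 decile that ratio was 1.05 (0.77 to 1.46), and that of peaks with NKX2-1 turned to 0.85 (0.779 to 0.928). The share was 77.3% with all NKX2-1 lists cut to the length of the shortest, 45.3% with the H3122 lists only, 70.1% with NKX2-1 scores of at least 200 and 87.5% with scores of at least 500. The number of FOXA1 peaks without NKX2-1 thus moved most with the replicate 2 list and the NKX2-1 score minimum. The weakened differences were those of chromosomes 19 and 13 at scores of at least 100 and with lists of equal length. No paired analysis was possible because FOXA1 had a single list and no result compared replicates. Counts near gene starts, by gene list and of motifs were not run.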
